A study of Equus caballus with 8 samples.

Results

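Glycolysis and hypoxia response genes are 32 genes chosen by name: enzymes that break glucose down to pyruvate and lactate, kinases that set the pace of that route, lactate transporters, and genes that sense low oxygen or are switched on by it. Symbols were matched to horse NCBI Gene IDs, genes with under 10 counts in total were to be dropped, and all 32 were present and kept, out of 24942 genes in the count table. The endometrium is the lining of the uterus. Biopsies of it came from 4 Bavarian Warmblood mares, each sampled once on Day 12 of pregnancy (pregnant group, 4 libraries) and once on Day 12 of the oestrous cycle (cyclic group, 4 libraries), in random order per the series' design text. All mares received human chorionic gonadotropin (1500 IU) to bring on ovulation and were inseminated with semen of a single stallion, and the uterus was flushed before the biopsy; pregnancy was recognised by an embryonic vesicle on ultrasound. No strain alleles, transgenes or drugs distinguish the groups, and no ages are given in the sources used here. A biopsy holds epithelium, glands, stroma, vessels and immune cells together, so fewer cells of a type and less RNA per cell cannot be told apart in any value below.

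Glycolysis converts glucose to pyruvate in the cytosol, and lactate dehydrogenase then converts pyruvate to lactate, which monocarboxylate transporters carry across the cell membrane. When oxygen is short, prolyl hydroxylases of the EGLN family stop marking the HIF alpha subunits for destruction, and the HIF transcription factors raise most glycolytic genes together with genes such as CA9, BNIP3, NDRG1 and EGLN3. Before implantation the endometrium supplies glucose and other nutrients to the conceptus through uterine secretions, and in the mare the conceptus moves about the lumen, unattached, at this stage. The comparison asks which of these transcripts differ in the endometrium when a conceptus is present.

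Total counts ran from 9.81 M, in the pregnant library of mare 1, to 16.7 M, the other 7 libraries having at least 15.5 M. Levels are CPM, read counts brought to a common library size with the TMM method, which trims extreme genes before it scales. Marker genes of the labelled tissue were present in every library, with the epithelial adhesion molecule EPCAM at 516 to 568 CPM in the cyclic and 466 to 565 CPM in the pregnant libraries and the gland transcription factor FOXA2 at 3.59 to 6.03 and 3.61 to 4.84 CPM. The 32 genes together took 0.367 to 0.421% of the reads of a library, with no separation of the groups (0.367 to 0.421% cyclic, 0.375 to 0.414% pregnant).

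Glycolytic and hypoxia genes did not move as a block. In pregnancy EGLN3, NDRG1, ENO2 and PKM were higher, HK2, SLC16A1 and LDHB were lower, and the other 25 genes did not pass the test. The words rose, fell and changed are used where the adjusted p of edgeR's quasi-likelihood test, with the mare as a block and Benjamini-Hochberg adjustment over 15342 genes, is below 0.05. By that rule 7 of 32 genes (21.9%) changed, against 16.7% of all genes tested; 4 of 32 rose (12.5%, against 8.53%) and 3 of 32 fell (9.38%, against 8.19%), so both shares were near the background. The median log2 fold change was 0.021 over the 32 genes and 0.0042 over all genes tested. EGLN3 was the sole gene of the 32 with a log2 fold change beyond 1 in size, and 30 of 32 had a 95% interval that stayed within 1 on either side of 0. Pregnant and cyclic libraries did not overlap for 4 of 32 genes (12.5%, against 10.7% of all genes). Without the mare as block 1 of the 7 calls remained, that of NDRG1, when the share of all genes called was 2.54%. Leaving out mare 1, whose pregnant library was the shallowest, kept 3 of the 7 (ENO2, SLC16A1 and NDRG1) and gave no other call among the 32. That is 9.38% of the 32 genes, when the share of all genes called had fallen to 8.23%.

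**Figure D1:**
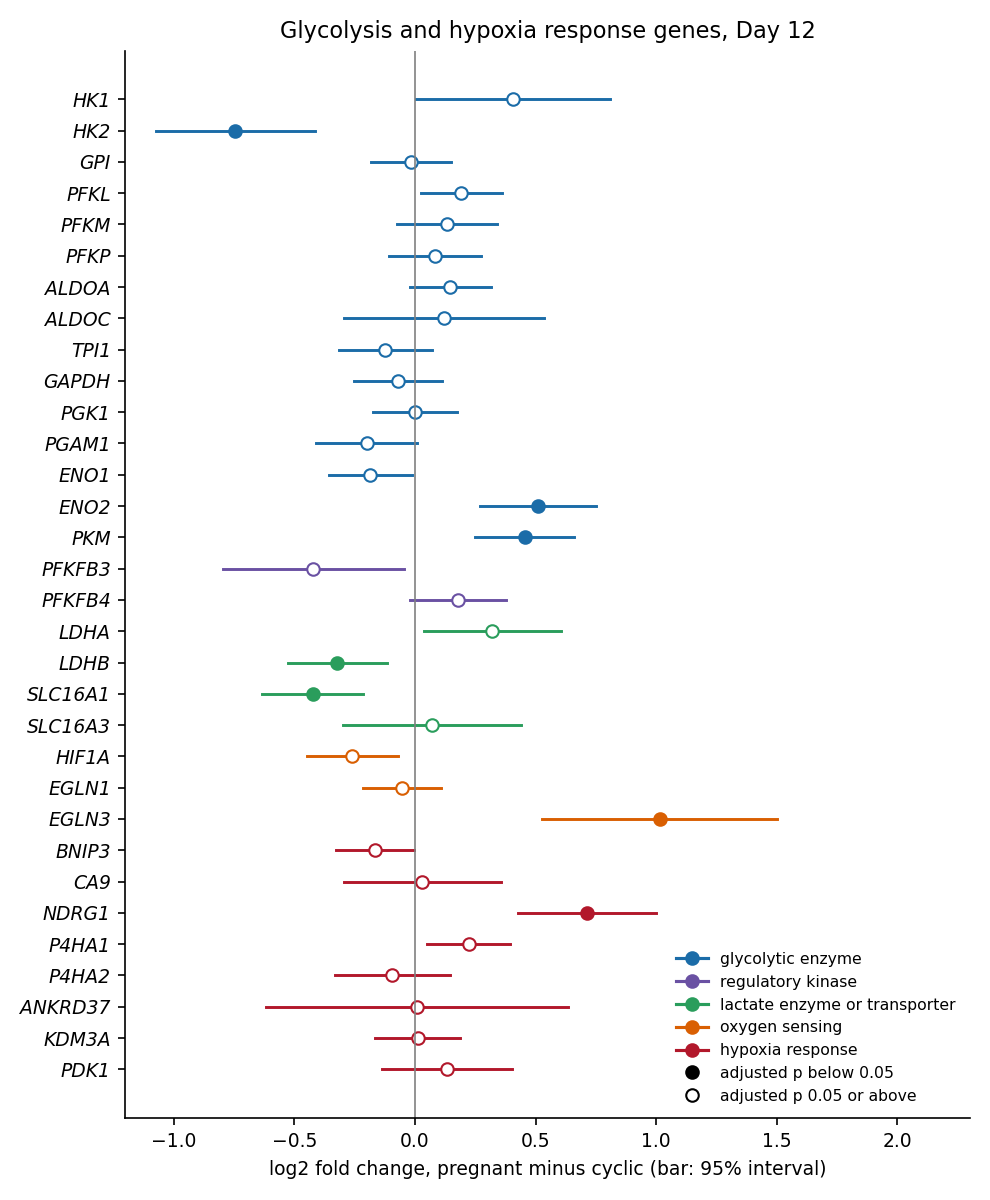
Log2 fold change of each of the 32 genes, pregnant minus cyclic (x axis), with 95% intervals from edgeR's quasi-likelihood fit over 4 mares, coloured by role; filled points have an adjusted p below 0.05. EGLN3 lies farthest right at 1.01 and HK2 farthest left at -0.74, and 25 of 32 points are open.

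Glucose enters the pathway through hexokinase, and the hexokinase genes HK1 and HK2 pointed in opposite directions. HK2 (Gene ID 100009677), the insulin-responsive isoform that HIF is known to induce, had 221, 378, 286 and 234 CPM in the cyclic libraries of mares 1 to 4 and 121, 186, 152 and 209 CPM in the pregnant ones. Every pregnant library was below every cyclic one, although the pregnant library of mare 4 came close. HK2 fell 1.67-fold, with a log2 fold change of -0.74 ± 0.14 (SE, n = 4 mares; edgeR adjusted p = 0.0116). The call was lost without the mare block (adjusted p = 0.0936) and without mare 1, 2 or 3 (adjusted p 0.0629, 0.0549 and 0.0548). HK1 (100072687), the widely expressed isoform, had 96.0, 96.8, 101 and 77.9 CPM in cyclic and 113, 191, 138 and 75.5 CPM in pregnant libraries. HK1 CPM was higher in pregnancy in mares 1 to 3 and slightly lower in mare 4. The log2 fold change of HK1 was 0.41 ± 0.16 (95% interval 0.0033 to 0.81; edgeR adjusted p = 0.160).

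In the middle of the pathway no enzyme gene passed the test, and GPI and PGK1 stayed close to their cyclic level. GPI (100057160), which isomerises glucose 6-phosphate, had 254 ± 22.1 CPM in cyclic and 251 ± 22.1 CPM in pregnant libraries (SD, n = 4 each), and PGK1 (100072656), which makes ATP from bisphosphoglycerate, had 58.0 ± 5.13 and 58.0 ± 2.84 CPM. The 95% interval of the log2 fold change was -0.18 to 0.15 for GPI and -0.17 to 0.17 for PGK1, so a change of 2-fold lies outside both. Phosphofructokinase commits sugar to glycolysis. Its liver-type subunit gene PFKL (100056927) was higher in 4 of 4 mares without passing the test (139 ± 18.0 and 158 ± 11.3 CPM, edgeR adjusted p = 0.116). The log2 fold change of PFKL was 0.19 (95% interval 0.02 to 0.36). The muscle-type PFKM (100034116) and platelet-type PFKP (100070818) each were higher in 3 of 4 mares, with adjusted p of 0.368 and 0.560 in the edgeR test.

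Aldolase splits the sugar into the triose phosphates that TPI1 interconverts. ALDOA (100066121), the main aldolase of most tissues, had 278 ± 31.2 CPM in cyclic and 309.6 ± 50.8 CPM in pregnant libraries (log2 fold change 0.15, 95% interval -0.02 to 0.32), and was higher in 4 of 4 mares. ALDOC (100059231), best known from brain, ranged from 3.93 to 8.75 CPM in cyclic and from 5.37 to 11.5 CPM in pregnant libraries, and those ranges overlap widely. TPI1 (100052671) and PGAM1 (100070738), the phosphoglycerate mutase, were each lower in 3 of 4 mares, with log2 fold changes of -0.12 ± 0.09 and -0.20 ± 0.09 (SE, n = 4 mares; edgeR adjusted p 0.371 and 0.182). GAPDH (100033897), which many laboratories use as a reference transcript, had 452, 432, 511 and 542 CPM in the cyclic and 443, 455, 438 and 503 CPM in the pregnant libraries. Its log2 fold change was -0.07, with a 95% interval of -0.25 to 0.11. In other mammals GAPDH, PGK1, PGAM1, TPI1, LDHA and several further enzymes have processed copies elsewhere in the genome, and the counting behind these reads is not described, so their values are uncertain where reads could be divided.

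At the end of the pathway, ENO2 and PKM were the enzyme genes that rose. ENO2 (100052776), called neuron-specific enolase although other cells also express it, had 8.95, 6.72, 9.44 and 7.25 CPM in cyclic and 11.9, 9.48, 14.1 and 10.6 CPM in pregnant libraries. All 4 pregnant libraries were above all 4 cyclic ones, the lowest pregnant value barely so. ENO2 rose 1.42-fold (log2 fold change 0.51 ± 0.11; edgeR adjusted p = 0.0114), a call lost without the mare block (0.147) and without mare 3 (0.0527). ENO1 (100051879), the enolase found in nearly all cells, moved the other way in 4 of 4 mares, from 390.4 ± 46.2 to 342 ± 20.8 CPM, but did not pass (log2 fold change -0.19, 95% interval -0.36 to -0.01; edgeR adjusted p = 0.135). PKM (100063687), the pyruvate kinase of most tissues, had 143, 110.1, 131 and 125 CPM in cyclic and 195, 168, 202 and 136 CPM in pregnant libraries. The groups overlapped, because mare 4 had 136 CPM in pregnancy, below the 143 CPM of mare 1 in the cycle. PKM rose 1.37-fold (log2 fold change 0.46 ± 0.09; edgeR adjusted p = 0.00925), and the call was lost without the mare block (0.103) and without mare 1 (0.0503). The counts are per gene, so the PKM1 and PKM2 splice forms are not distinguished.

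PFKFB kinases make fructose 2,6-bisphosphate, the strongest activator of phosphofructokinase. PFKFB3 (100070251) had 146, 164, 179 and 168 CPM in cyclic and 115, 91.3, 116 and 184 CPM in pregnant libraries. It was lower in mares 1 to 3 and higher in mare 4, with a log2 fold change of -0.42 ± 0.16 (SE, n = 4 mares; edgeR adjusted p = 0.126); it passed with DESeq2 (adjusted p = 0.0279) and, at a log2 fold change of -0.61, without mare 4 (edgeR adjusted p = 0.00697). PFKFB4 (100053840) had 22.4 ± 1.93 and 25.4 ± 3.21 CPM and was higher in 4 of 4 mares without passing (edgeR adjusted p = 0.209).

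Of the lactate genes, LDHB and the transporter SLC16A1 fell. LDHB (100033997), whose subunit favours the conversion of lactate to pyruvate, had 514, 685, 510.3 and 273 CPM in cyclic and 434, 450.3, 434 and 238 CPM in pregnant libraries. Mare 4 was low in both states, so the groups overlapped although each mare went down. The fall of LDHB was 1.25-fold (log2 fold change -0.32 ± 0.09; edgeR adjusted p = 0.0398). This was the least stable of the 7 calls: it was lost when libraries were scaled by their totals (adjusted p = 0.117), without the block (0.589) and without each of mares 1 to 4 (0.114, 0.0999, 0.0729 and 0.0574). LDHA (100057016), whose subunit favours lactate formation and which HIF is known to induce, had 26.1, 33.7, 41.4 and 42.3 CPM in cyclic and 36.6, 54.9, 47.3 and 39.8 CPM in pregnant libraries. It was higher in mares 1 to 3, and passed solely without mare 4 (log2 fold change 0.46, edgeR adjusted p = 0.0276, against 0.32 and 0.120 with all 4 mares).

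SLC16A1 (100009694) encodes the monocarboxylate transporter MCT1. Cyclic libraries had 72.8, 120.3, 93.0 and 107 CPM and pregnant ones 67.4, 91.4, 56.1 and 77.9 CPM. Each mare was lower in pregnancy, by least in mare 1, and the groups overlapped. SLC16A1 fell 1.34-fold (log2 fold change -0.42 ± 0.09; edgeR adjusted p = 0.0147), and the call was lost without the mare block (0.256) and without mare 4 (0.0536). SLC16A3 (100056191), encoding the hypoxia-inducible exporter MCT4, was sparse at 4.77 ± 1.13 and 4.96 ± 0.568 CPM, and its log2 fold change of 0.07 had a 95% interval of -0.30 to 0.44.

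**Figure D2:**
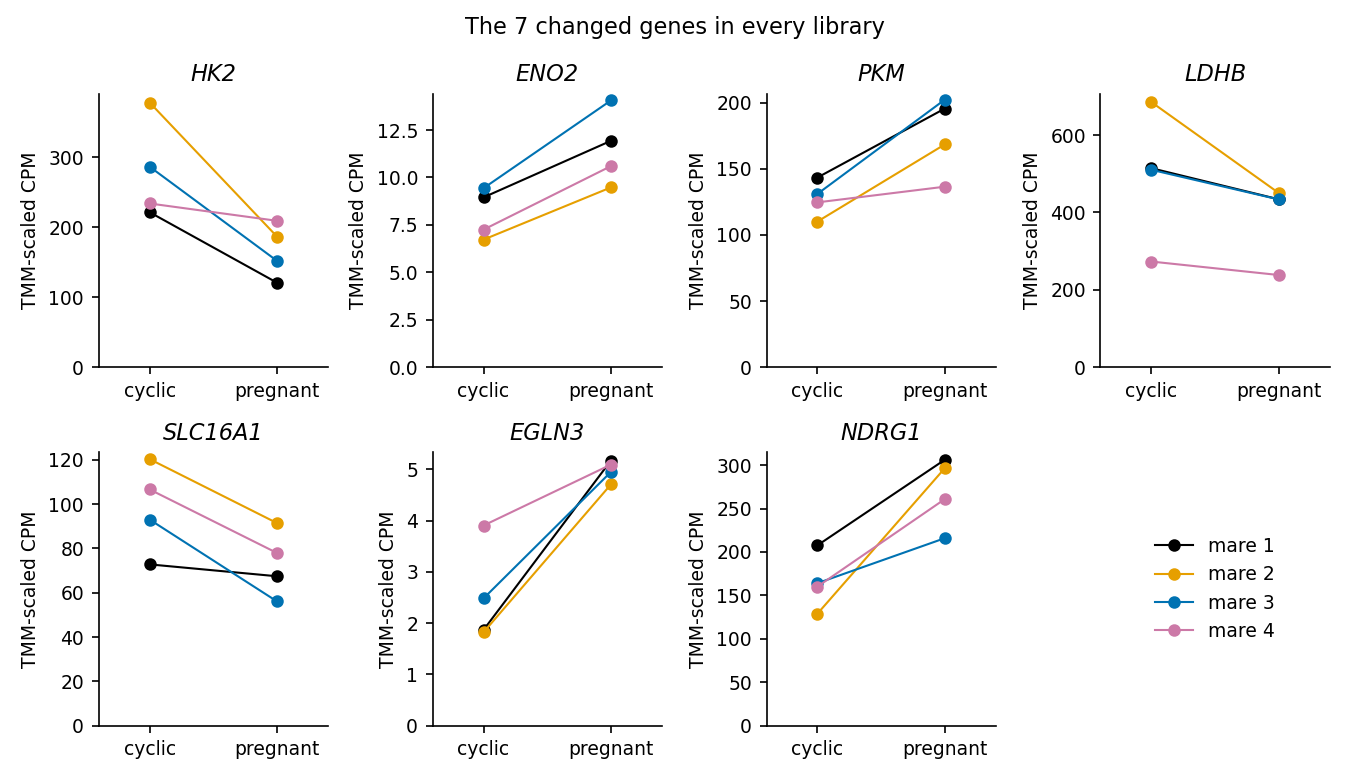
TMM-scaled CPM (y axes, starting at 0) of the 7 changed genes in the cyclic and pregnant library of each mare, joined by a line per mare. Lines for ENO2, PKM, EGLN3 and NDRG1 go up and those for HK2, LDHB and SLC16A1 go down in all 4 mares, with the flattest HK2 line in mare 4.

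Among the oxygen sensing genes EGLN3 rose while its relative EGLN1 had an interval close to 0. EGLN3 (100056635), a prolyl hydroxylase that is itself a HIF target, had 29, 29, 40 and 63 reads in the cyclic and 52, 73, 88 and 86 reads in the pregnant libraries of mares 1 to 4. These correspond to 1.87, 1.82, 2.48 and 3.90 CPM in cyclic and 5.17, 4.71, 4.95 and 5.09 CPM in pregnant libraries. The pregnant libraries lay close together and all above the cyclic ones, among which mare 4 was the highest. EGLN3 rose 2.02-fold (log2 fold change 1.01 ± 0.22; edgeR adjusted p = 0.0123), the call being lost without the mare block (0.0763) and without mare 1 (0.0677). EGLN1 (100060551), the main HIF prolyl hydroxylase in most tissues, had 43.1 ± 3.04 and 41.5 ± 2.67 CPM (log2 fold change -0.05, 95% interval -0.21 to 0.11). HIF1A (100061166), the oxygen-labile subunit of HIF-1, had 286, 327, 195 and 294 CPM in cyclic and 212, 262, 191 and 246 CPM in pregnant libraries. It was lower in 4 of 4 mares, scarcely so in mare 3, and just missed the threshold (log2 fold change -0.26 ± 0.08; edgeR adjusted p = 0.0651). HIF1A passed with DESeq2 (adjusted p = 0.0360) and without mare 3 (0.0389). HIF1A protein, which oxygen controls chiefly through its breakdown, was not measured.

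Of the 8 hypoxia response genes 1 changed, NDRG1 (12.5%, against 16.7% of all genes tested). NDRG1 (100068997), a stress and differentiation gene induced by HIF and by other signals, had 208, 129, 164 and 160.2 CPM in cyclic and 306, 297, 216 and 261 CPM in pregnant libraries. The lowest pregnant library, of mare 3, was above the highest cyclic one, of mare 1. The rise of NDRG1 was 1.64-fold (log2 fold change 0.71 ± 0.12; edgeR adjusted p = 0.00671), and it passed in 13 of 13 alternatives, with adjusted p up to 0.0496 without the mare block.

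The remaining 7 response genes include those used most often as hypoxia markers. CA9 (100055579), a cell surface carbonic anhydrase whose transcription depends closely on HIF-1, had 6.95, 4.78, 6.39 and 4.71 CPM in cyclic and 5.97, 4.83, 7.09 and 5.27 CPM in pregnant libraries. The groups overlapped throughout, and the log2 fold change of CA9 was 0.03 (95% interval -0.29 to 0.36). BNIP3 (100051673), a mitophagy receptor, had 88.0 ± 12.8 and 78.0 ± 5.21 CPM and was lower in 3 of 4 mares (log2 fold change -0.17, 95% interval -0.33 to -0.0036; edgeR adjusted p = 0.154). PDK1 (100064091), a kinase that shuts pyruvate out of the mitochondrial pyruvate dehydrogenase reaction, had 70.4 ± 10.6 and 77.4 ± 15.3 CPM (edgeR adjusted p = 0.498). KDM3A (100066939), an oxygen-dependent histone demethylase, had 37.7 ± 5.01 and 37.9 ± 2.64 CPM. For ANKRD37 (100630630), at 15 to 57 reads per library, the 95% interval ran from -0.62 to 0.63 on the log2 scale, so changes within that range are not excluded. Its log2 ratios within mares 1 to 4 were -0.40, 0.77, 0.0054 and -0.45. P4HA1 (100063760), a catalytic subunit of collagen prolyl 4-hydroxylase, was higher in 4 of 4 mares (36.8 ± 4.99 and 43.2 ± 7.34 CPM) and missed the threshold (log2 fold change 0.22 ± 0.08; edgeR adjusted p = 0.0779). The alternative subunit gene P4HA2 (100072882) had 28.8 ± 4.13 and 27.2 ± 5.12 CPM (edgeR adjusted p = 0.601).

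Ratios between related genes were taken within each library, where no scaling between libraries is needed, for 10 pairs; they are ratios of read counts, not corrected for transcript length, so they compare libraries and not the levels of both genes. The HK1 to HK2 count ratio was 0.434, 0.256, 0.353 and 0.334 in the cyclic libraries of mares 1 to 4 and 0.935, 1.02, 0.907 and 0.362 in the pregnant ones. Mares 1 to 3 went from well below 1 to about 1, and mare 4 hardly moved. LDHA reads were 0.0509, 0.0493, 0.0814 and 0.155 of LDHB reads in the cycle and 0.0847, 0.122, 0.109 and 0.167 in pregnancy, higher in every mare and again by least in mare 4. The EGLN1 to EGLN3 ratio was 20.4, 23.2, 15.5 and 11.5 in the cycle and 7.30, 9.39, 8.12 and 7.83 in pregnancy, with no overlap, and the ENO1 to ENO2 ratio went from between 37.2 and 61.1 to between 24.4 and 36.3, also with no overlap. On the log2 scale the mean within-mare differences were 1.14 ± 0.78 for HK1/HK2, 0.64 ± 0.51 for LDHA/LDHB, -1.07 ± 0.41 for EGLN1/EGLN3 and -0.69 ± 0.14 for ENO1/ENO2 (SD, n = 4 mares). SLC16A1/SLC16A3, PFKP/PFKL and P4HA1/P4HA2 had differences of -0.50 ± 0.29, -0.11 ± 0.07 and 0.32 ± 0.27, and also went 1 way in all 4 mares. PFKFB3/PFKFB4 (-0.60 ± 0.52), PFKM/PFKL (-0.06 ± 0.32) and ALDOA/ALDOC (0.01 ± 0.38) differed in direction between mares. With 4 mares an exact two-sided sign-flip permutation test cannot give a p below 0.13, the value reached by the 7 pairs that went 1 way, or 0.179 after adjustment over 10 pairs, so none of the ratios passed.

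**Figure D3:**
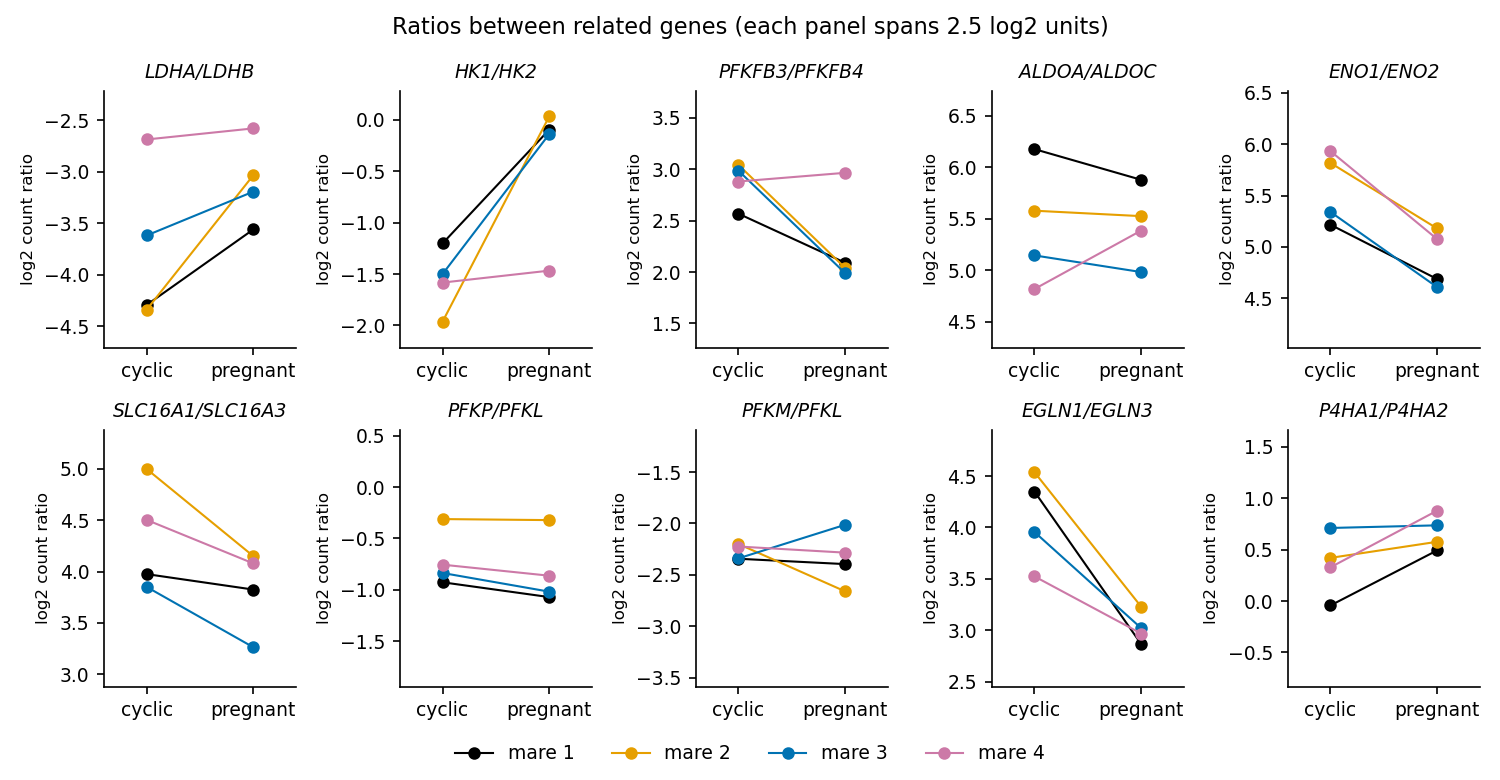
Log2 ratio of the read counts (each plus 2) of 10 pairs of related genes (y axes, each spanning 2.5 log2 units) in the cyclic and pregnant library of each mare, joined by a line per mare. HK1/HK2 goes up to about 0 in mares 1 to 3 and stays near -1.5 in mare 4, and EGLN1/EGLN3 and ENO1/ENO2 go down in all 4 mares.

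The 7 changed genes moved by different amounts in the 4 mares, a description of genes picked by a test on these same libraries. Of the 7 changed genes, 4 had their smallest within-mare ratio in mare 4 (HK2, PKM, LDHB and EGLN3), 2 in mare 1, 1 in mare 3 and 0 in mare 2. The median size of the log2 ratio over these 7 genes was 0.34 in mare 4, against 0.45, 0.61 and 0.62 in mares 1, 2 and 3. Over all genes tested the corresponding medians were 0.198, 0.236, 0.214 and 0.193 for mares 1 to 4, so mare 4 was lowest there too, by a small margin. In the direction of the change 13 of 32 genes (40.6%) went 1 way in 4 of 4 mares, against 38.8% of all genes. Levels also differed between mares irrespective of state. By the F-test of the mare terms in the same edgeR fit, 4 of 32 genes (12.5%) differed between mares, against 15.9% of all genes tested. These were LDHB (adjusted p = 0.00347), HIF1A (0.0339), SLC16A1 (0.0372) and P4HA1 (0.0482). For LDHB the mare took 84.9% of the variation (sum of squares on the log2 scale) and the state 11.9%, whereas for EGLN3 the mare took 13.9% and the state 74.6%, and for NDRG1 15.0% and 72.2%. Over the 32 genes the median share was 55.4% for the mare and 19.1% for the state, against 54.7% and 15.96% over all genes tested.

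**Figure D4:**
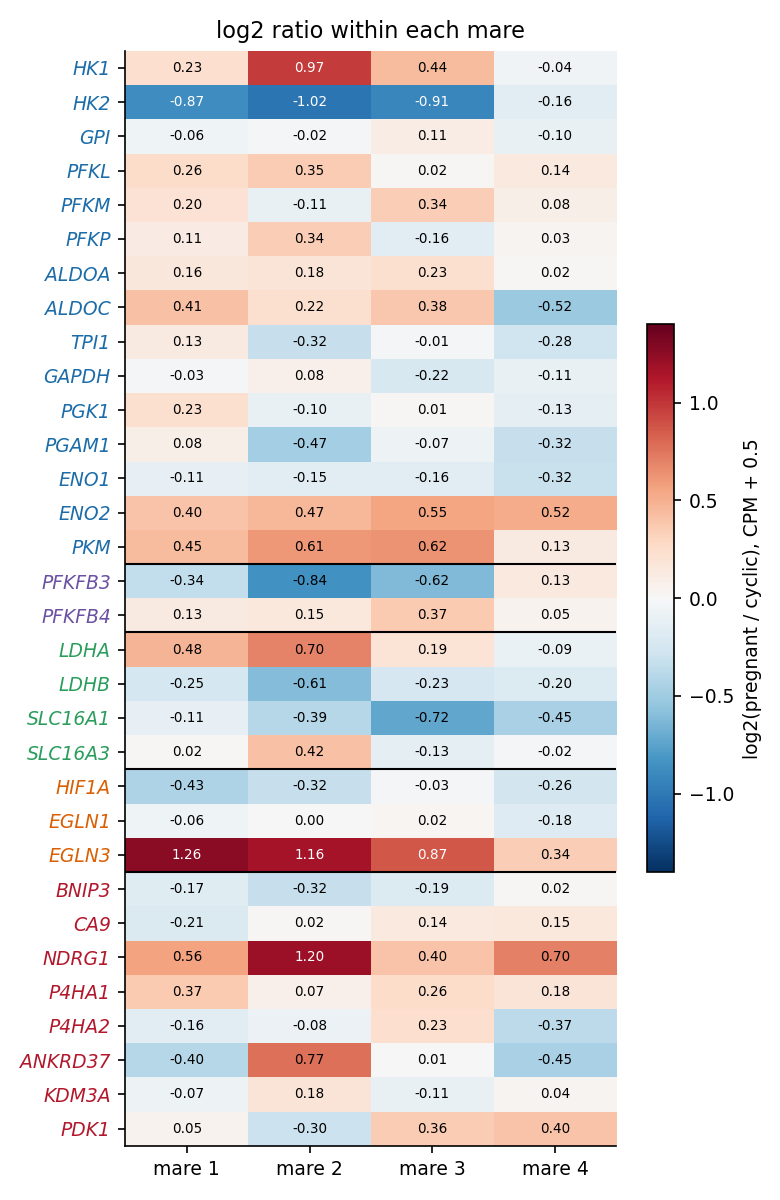
Within-mare log2 ratio of TMM-scaled CPM plus 0.5, pregnant over cyclic, for the 32 genes (rows, grouped by role from glycolytic enzymes at the top to hypoxia response genes at the bottom) in the 4 mares (columns), red where higher in pregnancy. EGLN3 runs from 1.26 in mare 1 to 0.34 in mare 4, and HK2 from -1.02 in mare 2 to -0.16 in mare 4.

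Neighbouring pathways were counted by the same rule. Of 11 transporters of glucose and fructose tested, 4 rose (36.4%, against 16.7% of all genes called): SLC2A1, the basal glucose carrier GLUT1 and a HIF target, rose 2.09-fold (from 144 ± 38.3 to 298 ± 78.0 CPM), and SLC2A3, SLC2A4 and SLC2A9 rose 1.50-fold, 2.13-fold and 2.03-fold. Among 8 other genes of monocarboxylate transport 3 fell and 0 rose (37.5%, against 16.7%), while the median log2 fold change of the list was 0.0055. Beside SLC16A1 those that fell were SLC16A7, encoding the high-affinity lactate and pyruvate transporter MCT2 (12.3 ± 3.36 to 3.98 ± 1.19 CPM), EMB, encoding the transporters' partner protein embigin (994 ± 173 to 554 ± 91.9 CPM), and SLC16A10, an aromatic amino acid carrier (14.8 ± 6.54 to 9.32 ± 2.74 CPM). Of 14 genes of the pyruvate dehydrogenase complex and pyruvate entry 3 rose and 0 fell (21.4%, against 16.7%), namely the inhibitory kinases PDK4 (1.71-fold) and PDK2 (1.37-fold) and pyruvate carboxylase PC (1.36-fold), beside PDK1, which did not pass. Calls of SLC2A1, SLC2A4, SLC2A9, SLC16A7, EMB and PDK4 were kept in 13 of 13 alternatives each. SLC2A3 and PDK2 kept theirs in 12 of 13, PC in 9 and SLC16A10 in 8. Without mare 1 the counts of called genes were 4 of the sugar transporters, 2 of the monocarboxylate genes and 2 of the pyruvate genes; the last was also 2 without mare 2 or 3, and the monocarboxylate count was 2 without mare 2. Without the mare block these counts were 3, 2 and 1.

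Of 38 other hypoxia targets tested, 8 rose and 2 fell (26.3%, against 16.7% of all genes, of which 8.53% rose and 8.19% fell), with VLDLR, a lipoprotein receptor, up 3.65-fold, LOXL2, a collagen cross-linking oxidase, up 1.58-fold, and SLC2A1 and SLC2A3 counted here as well. PFKFB2, 1 of the 2 that fell, is also counted among the other glycolysis genes below. The count of risers was 4 without mare 1 and 2 without the mare block, and that of fallers was 0 without mare 1, without the block and with DESeq2, and 1 without mare 2 or 4. The median log2 fold change of this list was 0.07. Of 18 HIF subunits and regulators tested, 3 rose and 0 fell, a share of 16.7% that equals the background: EPAS1, the HIF-2 alpha subunit, which is abundant in endothelium (1.30-fold), CITED2, which competes with HIF for its coactivator (1.48-fold), and USP20, a deubiquitinase (1.26-fold). Without the mare block none of the 3 passed (edgeR adjusted p 0.290 for EPAS1, 0.174 for CITED2 and 0.129 for USP20). The EPAS1 call was also lost when mare 1 (0.107) or mare 4 (0.0807) was left out.

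In further lists of carbohydrate metabolism the share called was 29.4% for other glycolysis genes, 22.2% for the pentose phosphate pathway, 15.8% for gluconeogenesis and glycogen and 10.0% for the tricarboxylic acid cycle, against 16.7% of all genes. Of 17 other glycolysis genes tested, 2 rose and 3 fell. Those that fell were PGM2L1, a glucose 1,6-bisphosphate synthase (23.7 ± 6.41 to 15.2 ± 4.97 CPM), and PFKFB2 and GPD2, by 1.20-fold each. Of 19 gluconeogenesis and glycogen genes 1 rose, the glycogen phosphorylase PYGL (1.68-fold; 13 of 13 alternatives), and 2 fell, FBP2 (1.47-fold) among them. Both PRPS1 and RPE, of 9 pentose phosphate genes, fell 1.28-fold, and FH and SUCLG2, of 20 tricarboxylic acid cycle genes, fell 1.20-fold and 1.23-fold. Calls of PFKFB2, GPD2, FBP2, SUCLG2 and RPE were kept in 4, 6, 5, 5 and 7 of 13 alternatives and that of FH in 9, and without mare 1 the fallers were 1 of the other glycolysis genes, 1 of the glycogen genes, 1 of the pentose phosphate genes and 0 of the tricarboxylic acid cycle genes. Without the mare block 0 genes fell in any of these 4 lists.

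**Figure D5:**
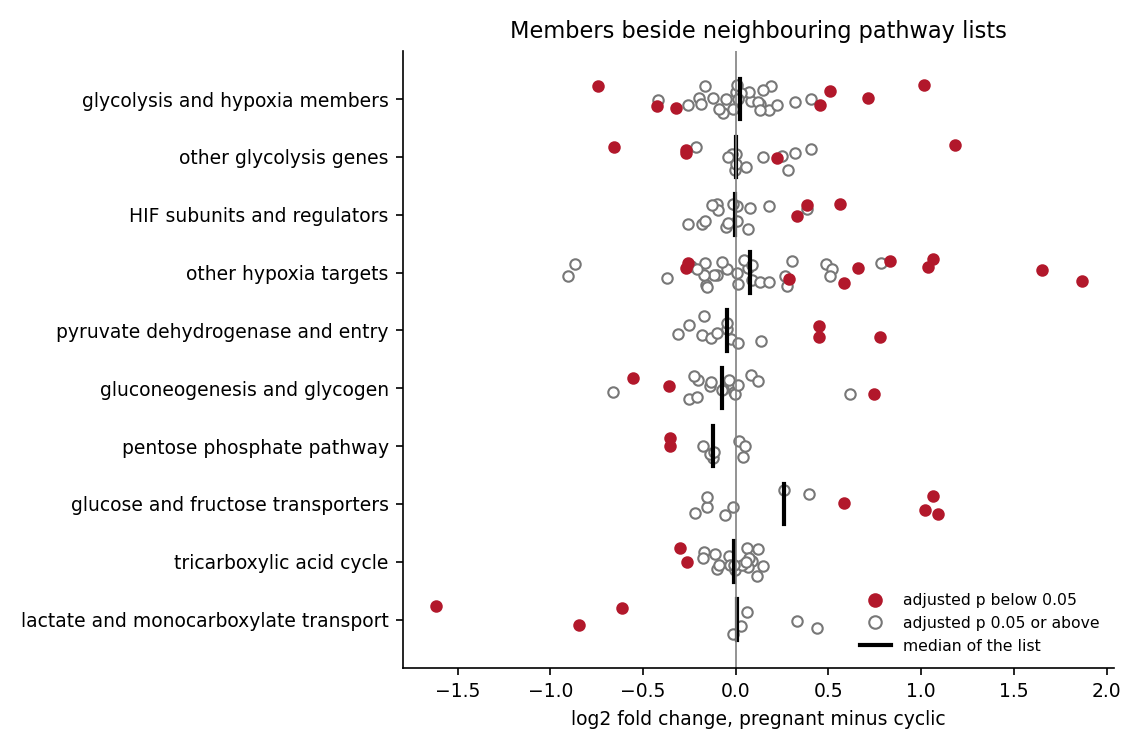
Log2 fold change, pregnant minus cyclic (x axis), of every tested gene of the 32 glycolysis and hypoxia genes and of 9 neighbouring lists (rows; vertical jitter carries no meaning), with red points for an adjusted p below 0.05 and a black bar at each list's median. The 32 genes have a median of 0.021, and the sugar transporters the highest median at 0.26.

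Markers of several cell types moved between the same libraries. The share called was 78.6% for endothelium, 63.6% for stroma and 60% for smooth muscle and pericytes, against 16.7% of all genes tested. It was 30% for epithelium, 30% for T and NK cells and 20% for trophoblast and embryo markers. Uterine gland, ciliated cell and macrophage markers each had 1 of 6 called higher, the background share of 16.7%. The gland list had a median log2 fold change of -0.145. It summed to 38972 to 63463 CPM in cyclic and 33582 to 44140 CPM in pregnant libraries. Without mare 4 its count of higher genes was 0, and with DESeq2 2 gland genes were called lower. The ciliated count was 0 without mare 1, and both counts were 0 without the mare block. Of 6 proliferation markers and 3 of granulocytes and mast cells tested, 0 were called. Endothelial markers were called higher in 11 of 14 cases, and their summed level was 714 to 1384 CPM in the cyclic and 1099 to 1612 CPM in the pregnant libraries. Of 10 smooth muscle and pericyte markers 6 were called higher (440 to 721 and 669 to 1041 CPM summed), as were 7 of 11 stromal markers (3321 to 4864 and 4120 to 4678 CPM summed). Of 10 epithelial markers 3 were called lower (1836 to 2193 and 1673 to 1866 CPM summed), a count that was 1 without mare 1, 2 or 4, and of 10 T and NK cell markers 3 were called higher (66.5 to 105 and 83.6 to 119.6 CPM summed), a count that was 1 without mare 2 and 2 without mare 1 or 4. Without mare 1 the smooth muscle count was 4, and without mare 4 it was 9. Without the mare block 10 endothelial, 5 smooth muscle, 2 stromal, 0 epithelial and 0 T and NK cell markers were called. Of the erythroid markers 1 was abundant enough to be tested and was called higher, without the mare block too, and the list summed to 4.52 to 5.60 CPM in cyclic and 7.46 to 9.60 CPM in pregnant libraries. Of 5 trophoblast and embryo markers tested 1 was called higher (7.19 to 9.99 and 8.06 to 16.6 CPM summed), and 0 were without the block or without mare 1 or 3. The part of these cell types in the changes of HK2, ENO2, PKM, LDHB, SLC16A1, EGLN3 and NDRG1 was not tested. Within those lists the erythroid genes ALAS2 and SLC4A1 and the trophoblast and embryo genes HAND1 and CDX2 had 0 counts in every library, and 4 skeletal muscle markers, a tissue rich in glycolytic enzymes, summed to at most 5.60 CPM in any library.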

How the data were processed

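Per the labels' protocols, poly(A) libraries came from 5 µg of total RNA (RNA integrity numbers 8.3 to 9.2) and 15 PCR cycles. Strand is not marked by this preparation, so overlapping antisense genes cannot be told apart. The authors deposited raw read counts per NCBI Gene ID. The submitters' processing notes name Trimmomatic 0.32.2 and HISAT2 2.0.3, while build, annotation and counter were not given in the sources used here. Also deposited by the authors were scaled signal values for 14037 genes, which equal CPM with TMM scaling over those genes (100% within a relative tolerance of 1e-06) and were used for 1 alternative. All columns were used.

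Gene IDs were given symbols from RefSeq's table for a horse telomere-to-telomere assembly (21420 of 24942 matched, 85.9%). No coordinates or sequences are given. The 32 members and the lists beside them were chosen with earlier results of these data known.

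Counts were analysed with edgeR 4.0.16 in R 4.3.3: filterByExpr (minimum count 10) kept 15342 genes, all 32 among them, libraries were scaled by TMM, and glmQLFTest (robust) compared states with the mare as a block. The SE is the log2 fold change divided by the square root of F. The block follows the series' design text, and deviations from the group means were correlated within mares across genes (0.565, 0.366, 0.497 and 0.467), while the highest correlation between different mares was 0.0021. Taking deviations from group means pushes correlations between different mares down when those within mares are positive. The low value between mares is therefore not separate support for the pairing. P-values rest on the spread over 4 mares, with each gene's variance estimate drawing on the other genes as well. Libraries of a group all differed by more than sampling noise (lowest chi-square per degree of freedom 24.6). Log2 ratios per mare use CPM plus 0.5 and pair ratios use counts plus 2. Alternatives were other scalings and filters, DESeq2 1.42.0, limma 3.58.1 (voom, and on log2 of the deposited values plus 1), thinning to the shallowest total, no block, and each mare left out. Named are the changed members, the 4 unchanged with the largest folds, the 4 with most reads, all pair members, and up to 4 changed genes per neighbouring list; a few genes that this rule or the marker lists name are not reported here.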

Additional observations from a re-analysis of the deposited data

Results flagged for a closer look

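In 7 of the 64 groups of 4 libraries formed by the 32 genes in each state, 1 library lay far from the other 3, its gap to them being past Dixon's 95% critical value; chance alone gives about 1 in 20 such groups. In the pregnant group PFKP had 120.2 CPM in mare 2 against 80.3 to 82.0 CPM in the others, ALDOC had 11.5 CPM in mare 3 against 5.37 to 6.32 CPM, and LDHB had 238 CPM in mare 4 against 434 to 450.3 CPM. GPI was lowest in the pregnant library of mare 1, the shallowest, at 218 CPM against 259 to 264 CPM, and TPI1 in that of mare 4 at 81.9 CPM against 97.4 to 100.1 CPM. In the cyclic group PGK1 had 50.4 CPM in mare 1 against 59.9 to 61.1 CPM, and P4HA1 had 44.3 CPM in mare 3 against 33.8 to 34.9 CPM. LDHB was also lowest in mare 4 in the cycle, at 273 CPM.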

How the results depend on the processing

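The 7 changed genes were the same under RLE size factors, either other filter, limma-voom, limma on the deposited values and thinning. Without the mare as replicate block (no paired term), 1 gene was higher and 0 lower (edgeR; 4 and 2 at an unadjusted p under 0.05), against 4 and 3. DESeq2 gave 4 higher and 5 lower (28.1% of the 32 genes, against 14.9% of all genes), adding PFKFB3 and HIF1A. Leaving out each mare gave 2 to 5 higher, 1 to 2 lower and 2 to 3 genes that differ between mares, against 4. The share of all genes called in those fits was 8.23 to 13.4%. The count of genes that differ between mares was 7 with no low-count filter and 2 with limma-voom. The median log2 fold change of the 32 genes stayed within -0.022 and 0.057. Signs turned only for genes near 0 that passed nowhere: with library totals GPI was at 0.018 and PGK1 at 0.035; PGK1 was at 0.0057 with the stricter filter and 0.0075 on deposited values; ANKRD37 was at -0.00029 with no filter, -0.025 with DESeq2 and -0.0040 on deposited values; and after thinning CA9 was at -0.093 and KDM3A at -0.018. Over the leave-one-out fits GPI ran from -0.066 to 0.010, PFKP from -0.016 to 0.158, PGK1 from -0.075 to 0.044, SLC16A3 from -0.064 to 0.146, CA9 from -0.020 to 0.110, P4HA2 from -0.213 to 0.00041, ANKRD37 from -0.334 to 0.194 and KDM3A from -0.057 to 0.044. No promoter motif was searched, since no sequence was used here. EGLN3, ANKRD37, CA9 and SLC16A3 rest on under 130 reads per library, which limits their precision, and libraries carry no molecular identifiers.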
